A study of Drosophila melanogaster with 18 samples.

Results

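Photoreceptors of 15-day-old flies (D15) were compared with those of 5-day-old flies (D5), neither of which had been given the blue light treatment. The aim was to describe how the nuclear RNA of the outer photoreceptors differed early in adult aging. Both groups lived in a daily light and dark cycle, under white LEDs whose spectrum peaks strongly in blue according to the paper. D15 flies thus spent more days under these lights. The comparison took the 3 D15 and the 3 D5 samples of a series of 18 samples, the remaining 12 being 30-day-old flies (D30) and D5 flies given blue light for 3, 5 or 8 h. All flies were males with white eyes (cn bw) that carried a GFP tag anchored to the nuclear membrane (GFP-KASH) under the Rh1 promoter, which is active in photoreceptors R1 to R6. The transgene sits in the 5′ region of Catalase, so both groups share a modified Catalase locus. Each sample pooled the tagged nuclei of many flies, immunoprecipitated through GFP, and the total RNA was depleted of ribosomal RNA before sequencing. The library names show the same lane for all 6 samples.

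The fly compound eye is built of repeated units that each hold the outer photoreceptors R1 to R6, the inner photoreceptors R7 and R8, cone cells and pigment cells. R1 to R6 detect light with the rhodopsin Rh1, encoded by ninaE, through a phospholipase C cascade that opens the TRP and TRPL channels. These neurons are not replaced in the adult, and they combine high energy use with repeated exposure to light and calcium.

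Of 17811 features in the count table, the 9427 with more than 10 counts in each of the 18 samples were tested. Read pairs counted on genes ranged from 16.7 to 18.9 M per sample at D5 and from 12.4 to 16.5 M at D15. Levels below are counts scaled to library size with TMM factors (cpm), given for the samples of each group in the order of their replicate numbers. Cpm is not divided by gene length. A gene is said to have risen or fallen when the Benjamini-Hochberg adjusted p of its quasi-likelihood F-test in edgeR was under 0.05, fitted over all 18 samples with 2 RUVs factors, which estimate unwanted variation from the replicates. Log2 fold changes (log2FC) are D15 relative to D5 and are given with their standard error (SE).

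At D15, 359 genes (3.81% of those tested) were differentially expressed, of which 143 were upregulated (1.52%) and 216 downregulated (2.29%). The median size of the log2FC of these genes was 0.79, and the median log2FC of all tested genes was −0.01. Of all 9427 tested genes, 1988 had an unadjusted p under 0.05 in the same fit. A DESeq2 Wald test with the same factors called 679 genes, 294 higher and 385 lower. D15 and D5 levels did not overlap for 336 of the 359 genes, 140 higher and 196 lower, whereas over all tested genes the groups did not overlap for 34% (16.8% higher and 17.2% lower). The number of calls depended on the libraries and on the model. Without D5 replicate 3, D15 replicate 3 or D15 replicate 1 the same test called 10, 40 and 56 genes, and without D5 replicate 1 it called 457. Without the RUVs factors, 15 genes (0.159%) passed, 10 higher (0.106%) and 5 lower (0.053%), all 15 among the 359 and in the same direction. A fit of the 6 samples alone without factors called 931 genes (9.88%), 274 higher (2.91%) and 657 lower (6.97%), and 289 of the 359 were among them in the same direction. That fit called 0 genes in edgeR when D5 replicate 3 or D15 replicate 3 was left out, although 1816 and 1977 genes then had an unadjusted p under 0.05. The labels call the samples biological replicates, each a pool of flies. In the fit of all 18 samples, the p-values rest on the spread between pools within all 6 conditions, with 3 samples in each. That spread is therefore not the spread of the D5 and D15 pools alone, which the fit of the 6 samples uses.

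**Figure D1:**
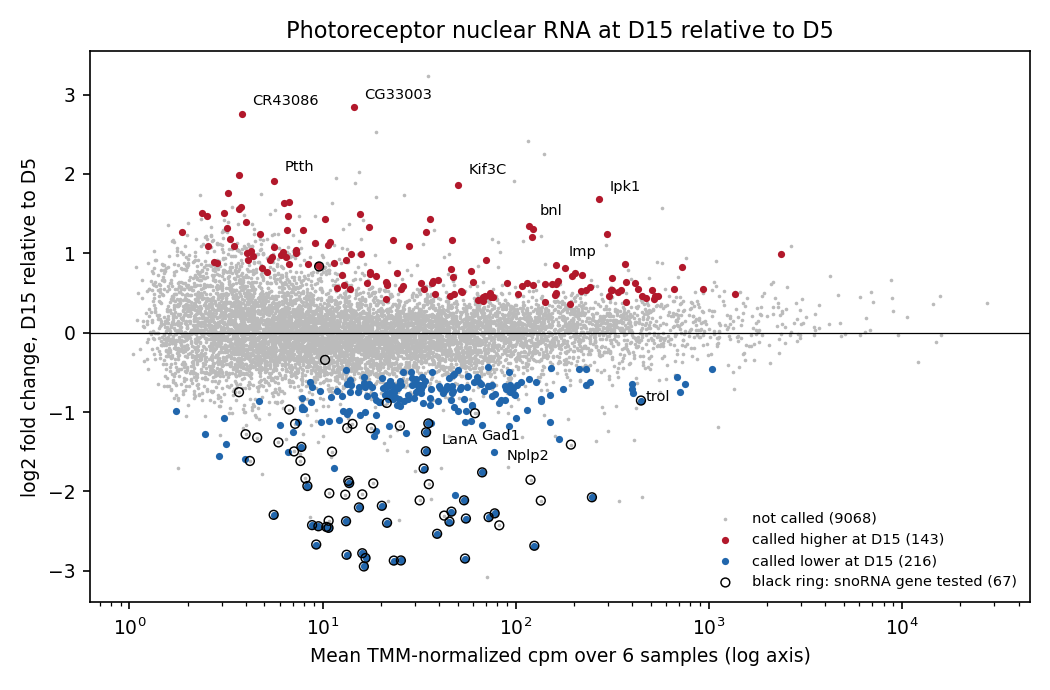
Log2 fold change of each of the 9427 tested genes at D15 relative to D5 (vertical axis) against its mean TMM-normalized cpm over the 6 samples (horizontal log axis). Red points are the 143 genes called higher, blue points the 216 called lower, and black rings mark the 67 snoRNA genes, 66 of which lie below 0.

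The calls of 10 genes held with all samples and after the removal of any 1 of the 6 libraries in the 18-sample fit with factors: Ptth, Ipk1, Imp, Reph, CG44774, CG13337 and CR43086 rose, and LanA, Hml and ple fell. Ptth, the gene of a brain neuropeptide known for driving steroid hormone synthesis in the larva (chromosome 2L, 575711 to 576896, BDGP6.54), measured 1.88, 3.02 and 2.41 cpm at D5 and 9.26, 8.39 and 8.63 cpm at D15. Its D15 levels were tightly grouped and all above D5 (log2FC 1.91 ± 0.26 SE, edgeR adjusted p = 0.0040). Ptth overlaps the gene cold on the opposite strand, and the part of reads from cold in its level was not tested. Ipk1, an inositol phosphate kinase that makes inositol hexakisphosphate (chromosome 2R, 20870791 to 20879145), rose from 170, 90.9 and 118 cpm to 436, 397 and 412 cpm (log2FC 1.68 ± 0.20 SE, adjusted p = 0.0025). D5 replicate 1 had the highest D5 level of Ipk1 and still lay far below every D15 sample.

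Imp encodes an RNA-binding protein that regulates the stability and transport of mRNAs. It measured 115.2, 112 and 104 cpm at D5 and 202, 237 and 198 cpm at D15, a separation with little spread in either group (log2FC 0.86 ± 0.12 SE, edgeR adjusted p = 0.0040). CG44774 went from 71.8, 65.7 and 69.3 cpm to 150, 161 and 207 cpm (log2FC 1.21 ± 0.17 SE, adjusted p = 0.0040), and D15 replicate 3 was the highest. The pseudogene CR43086 (chromosome 3L, 17868740 to 17870573) was close to 1 cpm in every D5 sample, at 1.20, 0.74 and 0.99 cpm, and stood at 6.01, 6.70 and 7.21 cpm at D15 (log2FC 2.76 ± 0.31 SE, adjusted p = 0.0025). Reads of a pseudogene can be shared with related copies, which makes its level uncertain.

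The largest increase among genes whose groups did not overlap was that of CG33003 (chromosome 2L, 4400953 to 4403142), which measured 1.43, 2.73 and 2.31 cpm at D5 and 20.9, 45.8 and 13.8 cpm at D15. The D15 samples spread widely, with replicate 2 the highest (log2FC 2.84 ± 0.56 SE, edgeR adjusted p = 0.020), and the call was lost without D5 replicate 3, D15 replicate 1 or D15 replicate 2. Kif3C, which encodes a kinesin motor and lies on chromosome 4 (1147466 to 1169239), rose from 17.6, 24.9 and 19.5 cpm to 73.8, 83.2 and 83.7 cpm (log2FC 1.86 ± 0.29 SE, adjusted p = 0.0063). The lowest D15 level was about 3 times the highest D5 level, and of the fits without 1 library only the fit without D5 replicate 3 lost the call. The other genes among the 10 largest increases were vrs (log2FC 1.76), CG15418 (1.58), Kua (1.63), the lipase gene Lip3 (1.99) and the long noncoding RNA CR46254 (1.64), each with a mean under 10 cpm over the 6 samples. Lip3 lost its call when any 1 of the 6 libraries was left out.

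With the factors and without them, 15 genes passed. Besides CR43086, Ptth, Imp, CG44774, LanA and Hml, these were vrs, ebd2, Ir41a, CG34002, Jupiter and Gclm, which rose, and Pxn, Gad1 and Vmat, which fell. Gclm, the regulatory subunit of the enzyme for the first step of glutathione synthesis, went from 51.4, 41.2 and 43.8 cpm to 98.4, 100.2 and 86.5 cpm (log2FC 0.91 ± 0.17 SE, edgeR adjusted p = 0.012 with factors and 0.049 without). Jupiter, which encodes a microtubule-associated protein, rose less, with 65.9 to 72.8 cpm at D5 and 104.1 to 122.8 cpm at D15 (log2FC 0.62 ± 0.11 SE, adjusted p = 0.012). Ir41a, an olfactory receptor gene of the ionotropic family, measured 7.75, 5.63 and 8.21 cpm at D5 and 29.7, 24.1 and 17.999 cpm at D15 (log2FC 1.498 ± 0.25 SE, adjusted p = 0.0098).

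**Figure D2:**
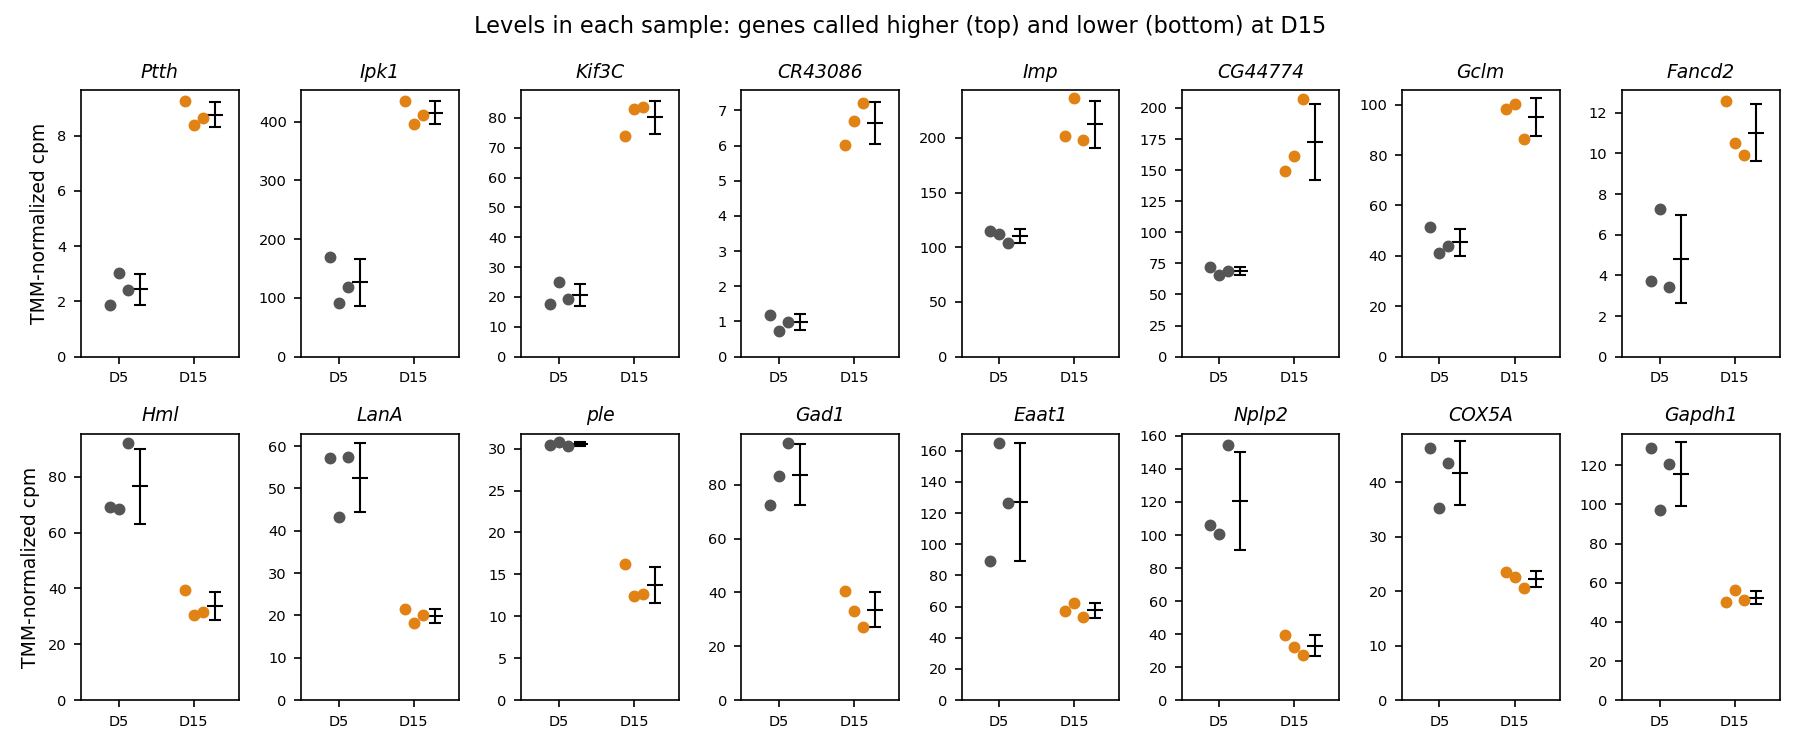
TMM-normalized cpm of 16 genes in each D5 (grey) and D15 (orange) sample on linear axes that start at 0, with the mean and SD of 3 samples as a black bar beside the points. In every panel the 3 D15 points lie on one side of the 3 D5 points, above them in the top row and below them in the bottom row.

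Small nucleolar RNAs (snoRNAs) made up the 10 largest decreases. These short RNAs guide pseudouridylation and 2′-O-methylation of ribosomal and spliceosomal RNA, and in flies most are processed out of introns of longer transcripts. They were grouped by the class in the annotation after the values had been seen. Of 67 snoRNA genes tested, 35 were downregulated (52.2%, against 2.29% of all genes) and 1 was upregulated, and 66 had a negative log2FC (median −2.02). The table holds 269 snoRNA features, so most did not pass the count filter.

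Psi18S-1086 fell the most, from 30.9, 18.6 and 33.5 cpm at D5 to 4.31, 6.96 and 3.78 cpm at D15 (log2FC −2.94 ± 0.51 SE, edgeR adjusted p = 0.011). It lies on chromosome 3L (833062 to 833209) within Sf3b3, on the same strand. Psi18S-1854c, within the ribosomal protein gene RpS5a, fell from 52.95, 24.4 and 49.2 cpm to 4.79, 12.4 and 8.76 cpm (log2FC −2.87 ± 0.62 SE, adjusted p = 0.025). For both, D5 replicate 2 was the lowest D5 sample and D15 replicate 2 the highest D15 sample. Or-aca5, one of several snoRNAs within Uhg4, fell from 274, 117 and 222 cpm to 27.5, 64.4 and 42.7 cpm (log2FC −2.68 ± 0.59 SE, adjusted p = 0.028).

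By name, all 47 snoRNA genes called Psi, the pseudouridylation guides, had a negative log2FC, and 27 fell (median −2.18). The 19 with other names had a median of −1.41 and 8 fell. These 19 include Me-named guides with the prefix scaRNA: MeU5-C46 fell (log2FC −0.855), and MeU2-48 was not called (log2FC −1.5). Me28S-A1322, the single Me-named guide tested outside these 19, moved the other way, from 5.59, 5.98 and 7.36 cpm to 14.1, 13.7 and 10.9 cpm (log2FC 0.83, edgeR adjusted p = 0.045). No fit without 1 library kept the call of Me28S-A1322. The snoRNAs that fell were 133 to 316 bases long.

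No such decrease was measured for the transcripts that span the snoRNAs. Beside the counts that follow, 1988 of all 9427 genes had an unadjusted p under 0.05. Of the 67, 59 lie within a gene on the same strand, and 0 of the 32 spanning genes tested were differentially expressed in edgeR (4 at an unadjusted p under 0.05, and 0 in DESeq2), with log2FC from −0.41 to 0.70 and a median of 0.00. The 6 snoRNAs within kra, which encodes a translation regulator, had log2FC from −2.42 to −1.28, and kra itself measured 0.02 (adjusted p = 0.96). Within Hrb98DE, an RNA-binding protein gene, 6 snoRNAs lay between −2.84 and −1.38, with 0.10 for the gene (adjusted p = 0.62).

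Summed over the 67 genes, snoRNAs measured 4754, 2519 and 4282 cpm at D5 and 1013, 2066 and 1536 cpm at D15, so the groups did not overlap. The sum also varied widely within other conditions, from 667 to 3562 cpm among the 3 samples after 5 h of blue light and from 939 to 2457 cpm after 8 h, while it was 1833, 2071 and 1644 cpm after 3 h and 626 to 1320 cpm at D30. The number of snoRNA calls ranged from 0, without D5 replicate 3 or D15 replicate 3, to 43, without D5 replicate 2, while the median log2FC stayed between −2.25 and −1.66. No snoRNA passed without factors (median −1.39), and 34 of the 67 fell in the fit of 6 samples, beside 6.97% of all genes. Of the 18 small nuclear RNA genes of the spliceosome tested, 1 fell, snRNA:U2:34ABc (72.4, 77.5 and 106 cpm to 38.7, 64.7 and 40.2 cpm, adjusted p = 0.049). Their median log2FC was −1.16 with factors and −0.485 without, and their summed level overlapped between the groups, at 3763, 2927 and 4958 cpm at D5 and 1816, 4143 and 2116 cpm at D15. Recovery of short RNAs from each sample was not measured and its part in these values was not tested.

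**Figure D3:**
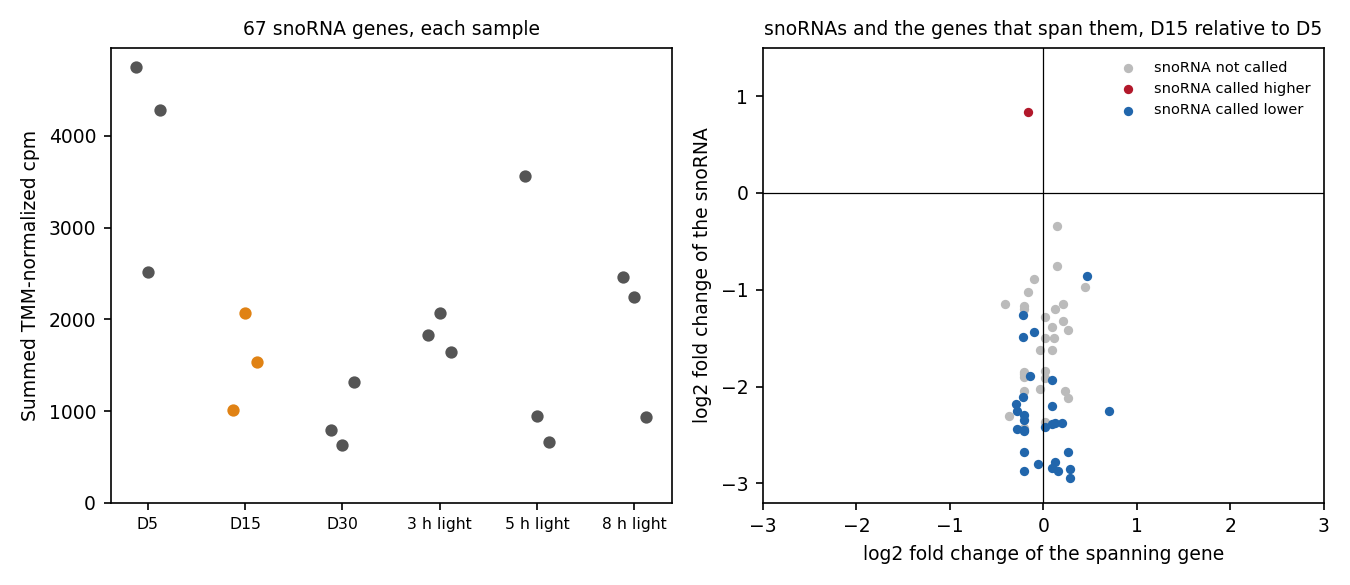
Left, summed TMM-normalized cpm of the 67 snoRNA genes in each of the 18 samples by condition, with D15 in orange. Right, log2 fold change of each snoRNA against that of the gene spanning it: spanning genes lie between −0.41 and 0.70, and nearly all snoRNAs lie below −0.5.

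All 21 photoreceptor markers passed the count filter. Most markers of other cells passed it too, among them 19 of 20 for glia and 26 of 27 for other neurons, so passing does not test the label of the nuclei. In edgeR 0 of the 21 photoreceptor markers were called, 7 had an unadjusted p under 0.05 and 3 were called higher by DESeq2 (17 with a positive log2FC, median 0.24, against −0.01 for all genes). Their summed level was 82760, 66260 and 67540 cpm at D5 and 94570, 94430 and 96540 cpm at D15, without overlap. Over all 9427 genes, 1988 had an unadjusted p under 0.05, and DESeq2 called 294 higher and 385 lower. Rh1 opsin, ninaE, measured 6348, 4711 and 5235 cpm at D5 and 7797, 8614 and 8401 cpm at D15. All D15 levels exceeded those of D5, but the adjusted p was 0.066 with factors (log2FC 0.52 ± 0.15 SE). The TRP channel gene trp was at 9464, 3845 and 6226 cpm at D5 and between 10520 and 11780 cpm at D15 (adjusted p = 0.098), and trpl overlapped between the groups (adjusted p = 0.94).

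Of the 39 phototransduction genes, rtp alone was called, beside 1.52% of all genes called higher and 2.29% called lower. It encodes retinophilin, a protein that anchors the NINAC myosin in the rhabdomere, and it went from 641, 417 and 477 cpm to 851, 892 and 1071 cpm (log2FC 0.83 ± 0.20 SE, edgeR adjusted p = 0.035). The call was kept without D5 replicate 1 and lost in each of the other 5 fits without 1 library. In the fit of 6 samples, 4 of the 39 rose and 3 fell, beside 2.91% and 6.97% of all genes. Other genes of photoreceptor physiology that rose were picked after their values were seen. Cib2, a calcium-binding protein gene, went from 24.2, 17.6 and 15.6 cpm to 53.9, 51.1 and 43.3 cpm (log2FC 1.27, edgeR adjusted p = 0.023). It starts at 20879930 on chromosome 2R, just past the end of Ipk1 (20879145) on the same strand, and whether they rose separately was not tested. The apical polarity gene sdt (log2FC 0.48, adjusted p = 0.042) and the store-operated calcium channel gene Orai (log2FC 0.65, adjusted p = 0.048) also rose. In the fit of 6 samples Cib2 and sdt were called and Orai was not (edgeR adjusted p = 0.091). None of these is among the 10 genes whose calls held after the removal of any 1 library.

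The summed levels of the marker lists of other cells were lower at D15, while most of the single markers did not pass. The summed level of all 8 marker lists is given beside the gene groups below because nuclei or free RNA of other cells may enter an immunoprecipitation, and in such samples fewer nuclei of a cell type and less RNA per nucleus cannot be told apart. Beside the counts of markers that follow, 2.29% of all genes fell and 1.52% rose. In the fit of 6 samples 6.97% of all genes fell. In the fit of all 18 samples with factors, 1988 of 9427 genes had an unadjusted p under 0.05. Hemocyte markers summed to 800, 819 and 934 cpm at D5 and 511, 494 and 467 cpm at D15, and 7 of the 14 tested fell. Fat body and oenocyte markers went from between 1733 and 2573 cpm to between 1051 and 1143 cpm (2 of 11 fell and Lip3 rose), muscle markers from between 2841 and 5447 cpm to between 2271 and 2478 cpm (0 of 14 called in edgeR or DESeq2 and 0 at an unadjusted p under 0.05, median −0.45, with 5 lower in the fit of 6 samples). Glial markers went from between 1103 and 1265 cpm to between 754 and 830 cpm (4 of 19 fell), and markers of other neurons from between 1518 and 1919 cpm to between 1062 and 1317 cpm (8 of 26 fell). Cone and pigment cell markers went from between 410 and 441 cpm to between 322 and 349 cpm, and the corneal lens gene Crys was the 1 of 7 that fell, a call lost without any 1 of the 6 libraries, with 3 of the 7 log2FC positive. Without D5 replicate 3, 1 hemocyte marker, 1 marker of other neurons and 0 glial and fat body markers fell, and the median of the fat body list turned from −0.95 to 0.53.

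As a share of the D5 mean, the D15 mean of the summed levels was 132% for photoreceptors, 51.9% for fat body and oenocytes, 54.8% for muscle, 57.7% for hemocytes, 66.3% for other neurons, 66.5% for glia, 71.1% for R7 and R8 and 79.2% for cone and pigment cells. The 2 groups did not overlap for any of the 8 lists. Of the 9 markers of R7 and R8, 0 were called in edgeR or DESeq2 and 1 had an unadjusted p under 0.05, and 5 had a positive log2FC (median 0.01, with the opposite sign in 9 of 15 other settings). Their sum rests mostly on pros (540, 787 and 741 cpm to 471, 427 and 323 cpm, adjusted p = 0.11), and the R7 opsin gene Rh3 overlapped between the groups (adjusted p = 0.51). None of the listed markers of other cells was at 0 in all 6 samples. Of the 216 downregulated genes, 22 are on a list of another cell type and 35 are snoRNAs. Of all 9427 tested genes, 67 are snoRNAs, and the lists of other cell types hold only 7 to 26 tested genes each. Such short lists do not hold every gene of a cell type, so 22 is not a total for other cells.

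**Figure D4:**
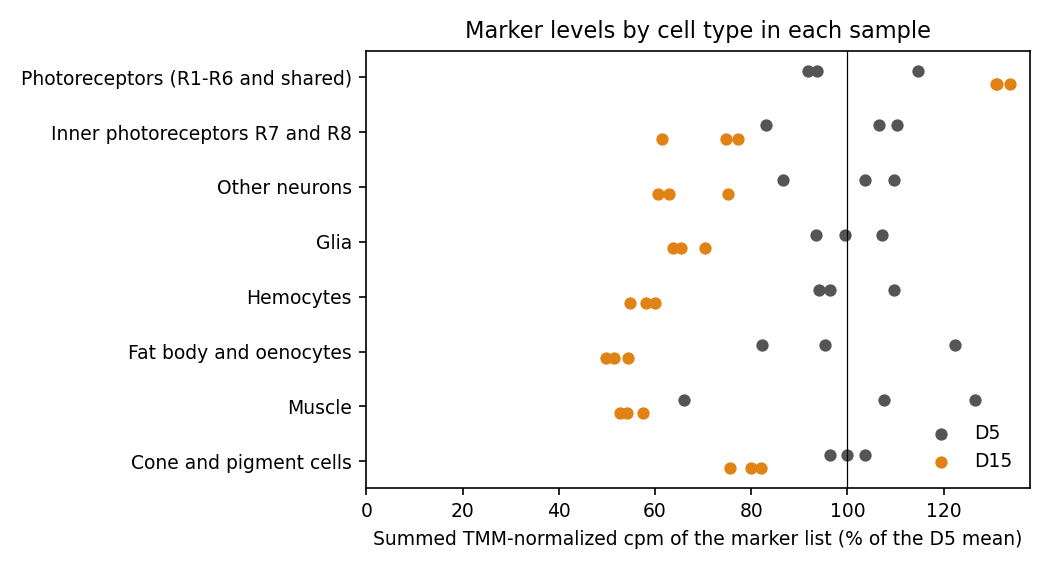
Summed TMM-normalized cpm of 8 lists of cell type markers in each D5 (grey) and D15 (orange) sample, as a percentage of the D5 mean of the list. The D15 photoreceptor sums lie between 131.0% and 133.7%, and all D15 sums of the other 7 lists lie between 49.9% and 82.0%.

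Genes of the basement membrane, the sheet of extracellular matrix under epithelia, were among those that fell: 6 of 14 were downregulated, against 2.29% of all genes, and all 14 had a negative log2FC (median −0.75). LanA, a laminin chain, measured 57.1, 43.1 and 57.4 cpm at D5 and 21.5, 18.2 and 20.2 cpm at D15 (log2FC −1.14 ± 0.15 SE, edgeR adjusted p = 0.0040). The collagen IV genes vkg and Col4a1 went from 127, 98.8 and 116 cpm to 52.3, 48.6 and 47.3 cpm and from 173, 142 and 163 cpm to 70.0, 71.6 and 62.2 cpm. The D15 samples of both collagen genes differed little from each other (log2FC −0.89 ± 0.14 SE with adjusted p = 0.0063 and −0.97 ± 0.16 SE with adjusted p = 0.0097). The perlecan gene trol fell from 522, 505 and 574 cpm to 299, 270 and 253 cpm (log2FC −0.76, adjusted p = 0.0096), and SPARC and the peroxidase gene Pxn also fell. Without D5 replicate 3, LanA was the 1 gene of the list that passed, and without any other library 4 to 6 passed. In the fit of 6 samples 9 of the 14 fell, beside 6.97% of all genes.

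Collagen IV, Pxn and SPARC are also hemocyte markers, and Hml, which encodes a clotting factor of hemocytes, fell from 69.3, 68.6 and 92.2 cpm to 39.6, 30.5 and 31.5 cpm (log2FC −0.99 ± 0.13 SE, edgeR adjusted p = 0.0040). The prophenoloxidase gene PPO2, which acts in melanization, fell from 33.6, 41.3 and 46.8 cpm to 17.2, 10.5 and 13.4 cpm (log2FC −1.27 ± 0.20 SE, adjusted p = 0.0063). Hemocyte markers at D15 stood at 57.7% of the D5 mean in summed level. That sum includes the genes shared with the basement membrane list, so the lists are not separate measures. The part of hemocytes in the change of the basement membrane list was not tested.

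Of 27 genes of amine, GABA and histamine metabolism, 11 fell (40.7%, against 2.29% of all genes), none rose and 16 did not pass, with a negative log2FC for 23 (median −0.44). The summed level of the list overlapped between the groups, at 6163, 5583 and 5565 cpm at D5 and 5333, 6085 and 6344 cpm at D15. The tyrosine hydroxylase gene ple, which makes the precursor of dopamine, measured 30.4, 30.8 and 30.3 cpm at D5 and 16.3, 12.5 and 12.6 cpm at D15 (log2FC −1.18 ± 0.17 SE, edgeR adjusted p = 0.0040). Gad1, which synthesizes GABA, went from 72.5, 83.3 and 95.4 cpm to 40.5, 33.2 and 27.2 cpm (log2FC −1.12 ± 0.17 SE, adjusted p = 0.0063). The D5 and D15 samples of both genes were well apart.

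The vesicular transporter genes Vmat for amines (155, 197 and 188 cpm to 109, 90.9 and 72.8 cpm, log2FC −0.86) and VGAT for GABA (15.7, 17.1 and 20.3 cpm to 8.70, 7.74 and 7.28 cpm, log2FC −0.98) fell as well, as did Gabat, which degrades GABA (log2FC −0.84, edgeR adjusted p = 0.021). Transport and inactivation genes of glia were among those that fell. The glutamate transporter gene Eaat1 went from 89.4, 165 and 127 cpm to 56.9, 62.5 and 53.3 cpm (log2FC −1.18 ± 0.23 SE, adjusted p = 0.019), and e, which conjugates histamine to beta-alanine, from 34.4, 39.5 and 44.6 cpm to 24.5, 15.9 and 18.7 cpm (log2FC −0.82, adjusted p = 0.021). AANAT1, an N-acetyltransferase that inactivates amines, fell from 67.9, 52.3 and 65.1 cpm to 36.3, 25.7 and 33.8 cpm (log2FC −0.76, adjusted p = 0.0097).

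Histamine is the transmitter of photoreceptors, and Hdc, which makes it, was not called (288, 154 and 179 cpm at D5 and 260, 283 and 284 cpm at D15, adjusted p = 0.32). The genes that fell on this list include ple, Gad1, Vmat and VGAT, which are markers of other neurons, and Eaat1, e and AANAT1, which are markers of glia. The summed levels of those lists were 66.3% and 66.5% of the D5 mean, and their part in the change was not tested. Without 1 library, between 1 (without D5 replicate 3) and 11 genes of the list fell.

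Of 34 neuropeptide and receptor genes, 6 fell and Ptth rose (2.29% and 1.52% of all genes), and 31 had a negative log2FC (median −0.44). Nplp2, a neuropeptide-like precursor, fell from 106, 100.4 and 155 cpm to 39.6, 32.2 and 27.4 cpm (log2FC −1.499 ± 0.31 SE, edgeR adjusted p = 0.023). The tachykinin gene Tk went from 10.4, 11.7 and 10.04 cpm to 4.88, 4.49 and 5.33 cpm (log2FC −0.96, adjusted p = 0.024), and Ms, Nplp3 and the receptor genes Octbeta1R and DopEcR also fell. Tk and Ms are on the list of other neurons. Without 1 library 0 to 8 of these genes fell, with 0 after leaving out D5 replicate 3, D15 replicate 1 or D15 replicate 3 and 1 after leaving out D5 replicate 2, and Ptth rose in each of those fits.

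Synaptic vesicle and active zone genes were divided, with 14 positive and 14 negative log2FC of 28 and a median of 0.01. Fife, an active zone scaffold gene, fell from 136, 173 and 169 cpm to 104, 89.7 and 88.5 cpm (log2FC −0.63, edgeR adjusted p = 0.034), and comt, the vesicle fusion ATPase, fell slightly (log2FC −0.43, adjusted p = 0.033). The call of Fife was kept in 1 and that of comt in 3 of the 6 fits without 1 library. In axon guidance and cell recognition, 2 of 43 genes fell, beside 2.29% of all genes, the teneurin gene Ten-m (log2FC −0.62) and the receptor kinase gene Alk (log2FC −0.66), with a median of −0.20 and calls kept in 2 and 1 of those 6 fits. Among 23 potassium channel and transporter genes, the inward rectifier Irk2 was the 1 that fell (log2FC −0.74, edgeR adjusted p = 0.049), a call kept in 1 of the 6 fits.

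Of 70 nuclear genes of the respiratory chain and ATP synthase, 15 fell (21.4%, against 2.29% of all genes), none rose and 69 had a negative log2FC (median −0.48). They came from each complex, with ND-75, ND-51, ND-39, ND-B14.7 and ND-B17.2 of complex I, SdhB and SdhC of complex II, UQCR-C1 and UQCR-14 of complex III, COX4 and COX5A of complex IV, and ATPsynB, ATPsynD, ATPsynE and ATPsynO of the ATP synthase. COX5A measured 46.4, 35.2 and 43.6 cpm at D5 and 23.5, 22.7 and 20.6 cpm at D15 (log2FC −0.66 ± 0.13 SE, edgeR adjusted p = 0.018). SdhC went from 14.7, 13.4 and 15.04 cpm to 8.05, 8.26 and 6.81 cpm (log2FC −0.82 ± 0.18 SE, adjusted p = 0.026). ND-75 fell by less, from 117, 99.1 and 124 cpm to 75.0, 74.1 and 66.0 cpm (log2FC −0.49 ± 0.11 SE, adjusted p = 0.030).

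The D15 levels of the respiratory chain genes lay entirely below those of D5 for 60 of the 70 (17.2% of all genes). In the fit of 6 samples 41 fell, beside 6.97% of all genes. However, 0 of 70 passed in the 18-sample fit without D5 replicate 3, D15 replicate 1 or D15 replicate 3. In glycolysis and pyruvate metabolism, 3 of 20 genes fell, against 2.29% of all genes (median −0.49). Gapdh1 went from 129, 97.2 and 121 cpm to 50.1, 56.1 and 51.0 cpm (log2FC −0.85 ± 0.19 SE, edgeR adjusted p = 0.030), Gapdh2 had a log2FC of −0.92 (adjusted p = 0.021), and Pdhb, a subunit of pyruvate dehydrogenase, fell from 58.7, 55.8 and 61.8 cpm to 34.1, 35.04 and 33.2 cpm (log2FC −0.67 ± 0.11 SE, adjusted p = 0.0068). Without 1 library, 0 (without D5 replicate 3) to 5 glycolysis genes fell. In the fit of 6 samples 13 fell and 1 rose, beside 6.97% and 2.91% of all genes. The 11 features of the mitochondrial genome had a median of −0.51. In edgeR and in DESeq2 0 were called, and 2 had an unadjusted p under 0.05, beside 1988 of all 9427 genes. Muscle, a tissue rich in these enzymes, had summed markers at 54.8% of the D5 mean, with Mhc at 1197, 668 and 1040 cpm at D5 and 442, 494 and 384 cpm at D15 (adjusted p = 0.30), and its part in these changes was not tested.

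**Figure D5:**
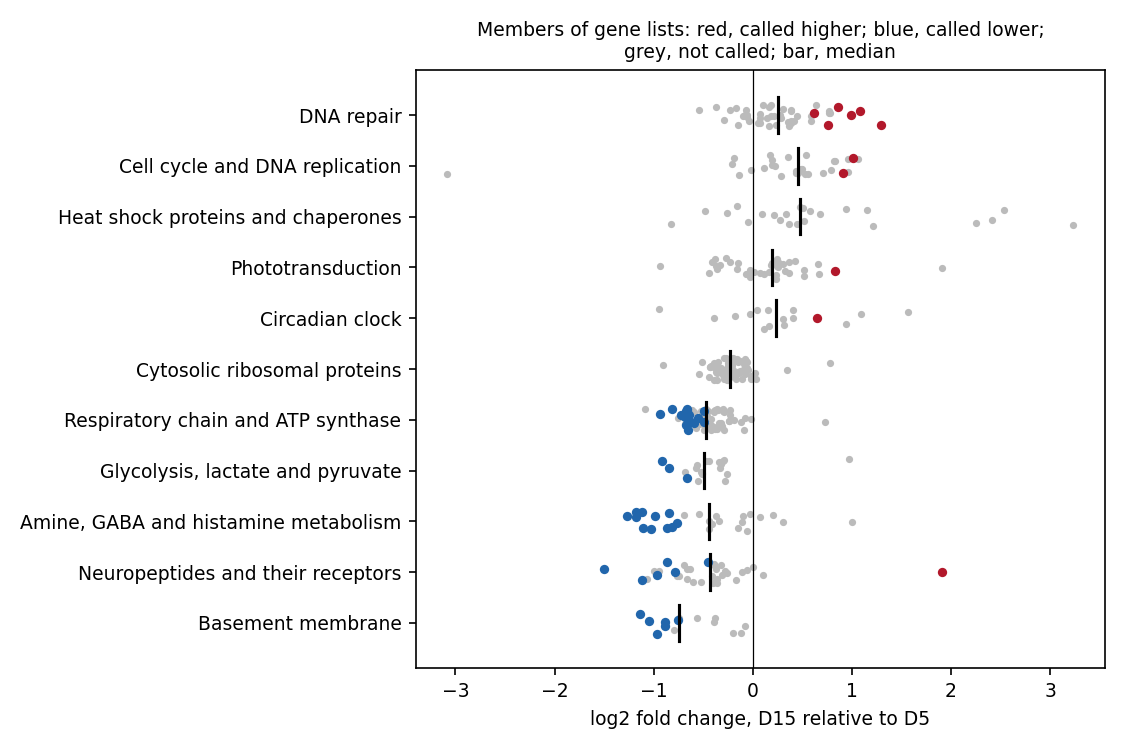
Log2 fold change at D15 relative to D5 of each tested gene of 11 lists, with genes called higher in red, genes called lower in blue, other genes in grey and the list median as a black bar. Medians run from −0.75 for the basement membrane to 0.48 for heat shock proteins and chaperones, in which no gene was called.

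DNA repair genes were the list with the most increases: 6 of 48 rose (12.5%, against 1.52% of all genes), none fell, and the median was 0.26. Among them were PolH, a translesion polymerase, Fancd2 and FANCI, a pair that acts at DNA crosslinks, the mismatch repair gene Pms2 and the helicase gene Blm. PolH measured 7.41, 12.2 and 8.68 cpm at D5 and 20.3, 15.8 and 20.2 cpm at D15 (log2FC 0.99 ± 0.18 SE, edgeR adjusted p = 0.014). Fancd2 went from 3.71, 7.29 and 3.44 cpm to 12.6, 10.5 and 9.91 cpm (log2FC 1.29 ± 0.25 SE, adjusted p = 0.018). In both, D5 replicate 2 was the highest D5 sample and remained below D15.

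Genes of the MRN complex, which binds broken DNA ends, were not called, with 17.3, 17.6 and 18.3 cpm against 25.1, 26.9 and 25.8 cpm for rad50 (adjusted p = 0.10). In edgeR, 0 genes of the DNA repair list passed without D5 replicate 3, D15 replicate 1 or D15 replicate 3, and 3 to 5 passed without each of the others. In the fit of 6 samples 8 of the 48 rose, beside 2.91% of all genes. On the cell cycle and replication list 2 of 29 rose, beside 1.52% of all genes, the helicase-like gene lds (5.30, 5.35 and 4.62 cpm to 11.4, 7.80 and 9.10 cpm, log2FC 1.01, edgeR adjusted p = 0.0073) and Grip71 of the microtubule nucleating complex (log2FC 0.91, adjusted p = 0.035), and the median was 0.45. Neither passed without D5 replicate 3 or D15 replicate 1, and Grip71 was kept in 2 and lds in 4 of the 6 fits without 1 library.

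Heat shock genes varied widely within the groups, and 0 of 23 passed in edgeR (5 at an unadjusted p under 0.05, and 1 lower in DESeq2). Over all 9427 genes, 1988 had an unadjusted p under 0.05, and DESeq2 called 385 lower. The small heat shock gene Hsp26 measured 5.70, 63.3 and 28.9 cpm at D5 and 84.6, 465 and 45.6 cpm at D15 (adjusted p = 0.20). D5 replicate 1 had the lowest and D15 replicate 2 the highest level. The same 2 samples were the extremes for Hsp27 (2.45, 15.8 and 6.84 cpm against 22.02, 154 and 10.6 cpm, adjusted p = 0.16) and for Hsp70Ab (5.41, 409.5 and 269 cpm against 337, 521 and 314 cpm, adjusted p = 0.77). The median log2FC of the list was 0.48 and turned to −0.37 under 1 of 15 other settings.

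The circadian kinase gene dco, which phosphorylates Period, was the 1 of 16 clock genes called, beside 1.52% of all genes called higher and 2.29% called lower. It measured 252, 299 and 266 cpm at D5 and 439, 401 and 563 cpm at D15 (log2FC 0.64 ± 0.15 SE, edgeR adjusted p = 0.033). The call of dco was kept in 2 of the 6 fits without 1 library. Genes whose level cycles over the day differed widely among the D5 samples: vri, a clock repressor, was at 424, 71.7 and 248 cpm at D5 and at 1154, 777 and 760 cpm at D15 (adjusted p = 0.11). D5 replicate 2 was also the lowest for Pdp1, the activator that vri opposes (adjusted p = 0.20), and for per (adjusted p = 0.24). Cdc6, a replication licensing gene, stood out in the same D5 sample at 363 cpm, against 2.39 cpm in D5 replicate 1 (adjusted p = 0.26).

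Few genes of the other lists were called, beside 1.52% of all genes called higher and 2.29% called lower. Of all 9427 genes, 1988 had an unadjusted p under 0.05. The fit of 6 samples called 2.91% of all genes higher and 6.97% lower, and DESeq2 called 385 genes lower. In edgeR, 0 of 83 cytosolic ribosomal protein genes passed (median −0.23, 79 negative, 11 at an unadjusted p under 0.05, with 10 lower and 1 higher in the fit of 6 samples and 0 to 67 lower over all other settings, fits without 1 library included), as did 0 of 55 mitochondrial ribosomal protein genes (median −0.18, 8 unadjusted), 0 of 31 proteasome genes (−0.08, 2 unadjusted) and 0 of 25 nucleolar genes (0.16, 3 unadjusted). The counts were also 0 for 22 antimicrobial peptide and humoral genes (−0.27, 4 unadjusted), 25 genes of the Toll and Imd pathways (0.02, 6 unadjusted) and 8 genes of dosage compensation (0.24, 4 unadjusted). DESeq2 called 1 cytosolic ribosomal protein gene, 1 antimicrobial gene and 1 Toll or Imd gene, all lower, and 0 on the other 4 lists. With 3 samples in a group these counts do not show that the genes were unchanged. Among 38 antioxidant genes Gclm and GstO3 rose, with calls kept in 4 and 1 of the 6 fits without 1 library. Among 21 autophagy genes Atg3, which attaches Atg8 to lipid, rose (log2FC 0.58, edgeR adjusted p = 0.030), a call kept in 2 of those 6 fits. Among 19 stress and activity-regulated factors CHES-1-like rose (log2FC 0.71, edgeR adjusted p = 0.050), a call lost without any 1 of the 6 libraries. On the lipid list FarO, a fatty acyl-CoA reductase gene of oenocytes, was the 1 of 18 that fell, from 28.6, 133 and 68.7 cpm to 13.8, 22.6 and 25.4 cpm (log2FC −2.05 ± 0.44 SE, edgeR adjusted p = 0.026), beside fat body and oenocyte markers at 51.9% of the D5 mean. The call of FarO was kept in 2 of the 6 fits without 1 library, and neither FarO nor GstO3 was called in the fit of 6 samples.

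Catalase, next to which the transgene sits, measured 2878, 6198 and 4112 cpm at D5 and 3941, 5370 and 6266 cpm at D15 (edgeR adjusted p = 0.95). GFP measured 127, 120 and 153 cpm at D5 and 77.4, 198 and 181 cpm at D15 (adjusted p = 0.64). Neither separated the groups.

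At D30, compared with the same D5 samples, the leading genes stood as follows. Ipk1 had a log2FC of 2.40 (1.68 at D15), Kif3C 3.00 (1.86 at D15), CR43086 4.32 (2.76 at D15) and Ptth 1.59 (1.91 at D15). Gclm had 0.62 (0.91 at D15), LanA −1.02 (−1.14 at D15), PPO2 −2.48 (−1.27 at D15) and Psi18S-1086 −3.96 (−2.94 at D15). Because both ages share the D5 samples, their agreement in direction carries no weight of its own, and D30 was sequenced in a different run.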

How the data were processed

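Raw counts of read pairs per gene were deposited by the authors for 18 samples: reads were trimmed with Trimmomatic, aligned to dm6 with HISAT2 and counted with HTSeq (0.11.1 in the submitters' processing notes, while the methods of the study name a later version). The strand setting of the counting is not given in the sources used here, so reads of genes that overlap on opposite strands may not be separated, and nested genes are uncertain. Among the named genes with such an overlap are Ptth (with cold), Kif3C (CG32017), rtp (Mms19), Lip3 (CheA87a), Gad1 (CG14989) and COX5A (glo). Rows naming no gene held 58.5% to 67.2% of the read pairs in the 6 samples and were left out, and 0 columns were unused. Names and positions came from the Ensembl annotation BDGP6.54, a later annotation release than that of the authors, and 17710 of 17811 features matched. A further 23 were named from the supplement of the study. No sequence was analysed here.

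Features were tested where each of the 18 samples had over 10 counts. RUVs factors (2), computed from the published description, entered an edgeR 4.0.16 quasi-likelihood fit of all 18 samples with TMM normalization (R 4.3.3), and p-values were adjusted over all 9427 features. DESeq2 1.42.0 served as an alternative. The pipeline was tested on simulated data. Alternatives were other filters, factors and scalings, fits of 6 samples, a replicate block and fits without 1 library. The leave-one-out and block fits of 6 samples were chosen after seeing the data.

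The comparison and the gene lists were chosen with earlier results of these data known. Named genes are the 10 largest increases and decreases among called genes whose groups do not overlap and whose mean is at least 1 cpm, genes called with and without factors, up to 4 genes of each list by p, and genes the study names. Others, including Reph, CG13337, kra, Hrb98DE, Me28S-A1322, Cib2, sdt, Orai, Hdc, Pdp1, per, Cdc6, Col4a1, Ms, Nplp3, DopEcR, bnl, ths and spi, and the further respiratory chain and DNA repair genes that were called, were chosen after their values were seen.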

Additional observations from a re-analysis of the deposited data

How the results depend on the processing

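The count of 359 differentially expressed genes (143 higher, 216 lower) depended on the filter, the factors and the samples fitted. A filter of cpm over 10 in every sample gave 20 (12 and 8), no filter 83 higher and 280 lower, no factors 15 (10 and 5), 6 samples without factors 931 (274 and 657), 6 samples with factors from all 18 samples 33 (15 and 18), and 6 samples with their own factors 2037 (817 and 1220). A DESeq2 Wald test gave 679 (294 and 385), and upper-quartile scaling moved the split from 143 higher and 216 lower to 313 and 147. Without 1 library, calls ranged from 10 to 457 in the fits with factors and from 0 to 1281 in the fits of 6 samples, where those higher ranged from 0 to 507 and those lower from 0 to 788. The other settings kept each count within 1.5 times. Deviations of same-numbered D5 and D15 samples after the factors had correlations of 0.24, 0.04 and 0.00, against −0.18 to 0.16 for the other pairs. So few pairs do not settle whether replicate numbers pair the samples. A replicate block gave 557 calls with 2 factors (288 and 269), 11 without factors (7 and 4) and 393 in 6 samples (118 and 275).

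In the fit of 6 samples with factors from all 18, the log2 fold changes of Hsf (−0.37), Hsp23 (−1.55), Hsp26 (−0.46), Hsp27 (−0.55), Hsp68 (−0.26), Rh3 (−0.21) and dl (−0.004) had the opposite sign, and none of these genes had been called. Without 1 library, Rh3 ranged from 0.141 to 0.355 in the fits of 18 samples with factors and from −0.064 to 0.097 in those of 6 samples without factors. The cause was not tested. Depth and 3 samples a group limit what these counts can show.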

Other observations

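Genes of 3 secreted growth factors, picked after their values were seen, were higher at D15. The FGF ligand gene bnl, known for guiding tracheal branching in the embryo, measured 58.8, 50.4 and 58.6 cpm at D5 and 163, 153 and 221 cpm at D15 (log2FC 1.35 ± 0.25 SE, edgeR adjusted p = 0.014). The FGF ligand gene ths went from 386, 343 and 328 cpm to 519, 540 and 574 cpm (log2FC 0.47, adjusted p = 0.044), and the EGF receptor ligand gene spi from 56.9, 54.8 and 58.7 cpm to 76.6, 82.8 and 78.1 cpm (log2FC 0.45, adjusted p = 0.037). The groups did not overlap for any of the 3 genes, of which bnl had the largest log2FC. The same held for 140 of the 143 genes called higher, and 16.8% of all genes were higher without overlap. None of the 3 is among the 10 genes whose calls held after the removal of any 1 library.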
